A study of Mus musculus with 12 samples.

Results

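N6-methyladenosine (m6A) was compared between Alkbh5 KO and WT cells over every peak of the deposited m6A table, which holds 12923 peaks beside a methylated and an unmodified control. All 12923 peaks were members, whatever their value. The table has 2 WT libraries, 2 Alkbh5 KO libraries and 2 libraries of another genotype, Alkbh5 del-cIDR. In the fit the del-cIDR values were only a source of spread. They also counted in the mean ratio that decided which peaks were tested and that set the quintiles of level. All libraries were made from polyA RNA of E14TG2a, an established mouse embryonic stem cell line. The cells were grown in medium with LIF, PD0325901 and CHIR99021, an inhibitor of MEK and an inhibitor of GSK3. Each genotype has 2 immunoprecipitated (IP) and 2 input samples from fragmented RNA. The labels do not say whether the 2 replicates of a genotype came from separate cultures or clones, so the p-values measure the spread between these libraries, which may be technical.

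m6A is a methyl mark laid on adenosines of nuclear RNA by a complex built around METTL3 and METTL14, read by YTH domain proteins, and linked to splicing, export and decay of messenger RNA. Alkbh5 is one of the demethylases that remove it, and Fto is the other. In MeRIP-seq an antibody against m6A pulls down RNA fragments, so that a peak's IP reads over its input reads measure how enriched that stretch of RNA is, not how many molecules carry the mark.

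The value of a peak, its m6A ratio, is IP over input multiplied by 1 constant per library that sets the methylated control to 4.10 in all libraries. The unmodified control lay at 0.0527 and 0.0200 in the WT libraries and at 0.0100 and 0.0195 in the KO libraries. In lowest terms, which are lower bounds, the median peak rested on 83 and 115 input reads in WT and 121 and 105 in KO. The constants were 0.526 and 0.577 in WT and 0.823 and 0.945 in KO, a KO to WT shift of 0.68 on the log2 scale, with a counting error of at most 0.097 from the control's reads. The direction of the overall change below turns with this scaling, and the part of the control in it was not tested. Any correction for the sequencing depth of IP and input is part of the same constant. A value with the constant taken out is a plain quotient of reads, without control or depth scaling. No annotation of the genome build of the peaks, GRCm39, was used here, so peaks are given by coordinates, counted from 1, without gene, exon or UTR. The level of Alkbh5 itself and the stem cell markers were not analysed here, and the labelled genotypes and cell type stand unchecked.

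A mean ratio of at least 1 over the 6 libraries was required for testing, which 9451 peaks (73.1%) met. The median ratio over these peaks was 2.12 and 1.88 in the WT libraries and 2.15 and 2.45 in the KO libraries. Both KO libraries were above both WT libraries, but KO replicate 1 lay next to WT replicate 1, and the gap between replicates of a genotype was as wide as the gap between genotypes. The median ratio of single peaks was 1.02-fold in KO replicate 1 over WT replicate 1, 1.14-fold over WT replicate 2, and in KO replicate 2 it was 1.16-fold over WT replicate 1 and 1.31-fold over WT replicate 2. The same measure was 1.13-fold for WT replicate 1 over WT replicate 2 and 1.14-fold for KO replicate 2 over KO replicate 1. WT replicate 1 exceeded KO replicate 1 at 47.3% of peaks.

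**Figure D1:**
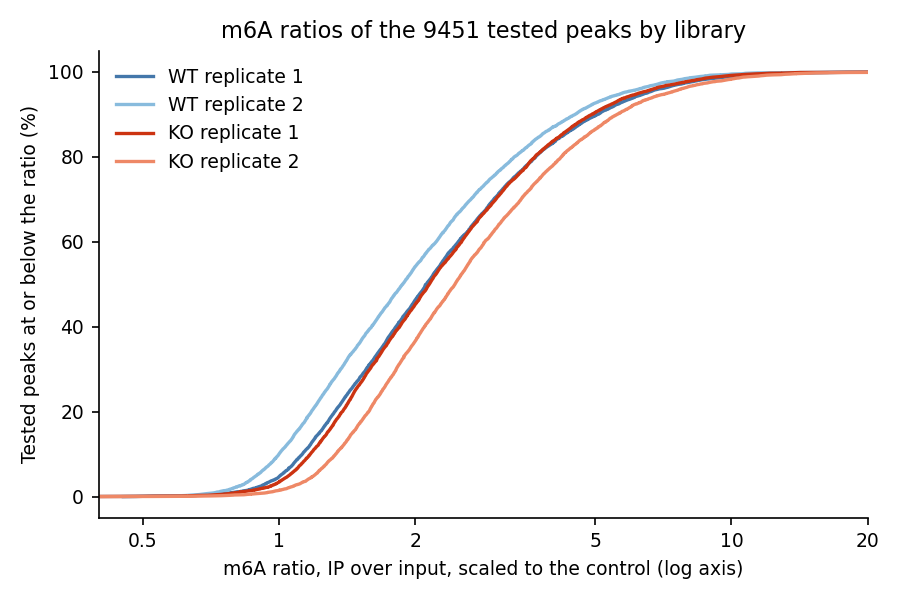
Cumulative distribution of the m6A ratio (x axis, log scale, IP over input scaled to the control) over the 9451 tested peaks, with the percent of peaks at or below each ratio on the y axis and 1 line per WT and KO library. The lines of WT replicate 1 and KO replicate 1 run together, with medians of 2.12 and 2.15, while WT replicate 2 (1.88) lies to the left and KO replicate 2 (2.45) to the right.

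Over peaks, the KO mean divided by the WT mean had a median of 1.15, with an interquartile range of 1.02 to 1.29. On log2(ratio + 1), the scale of the tests, which understates the change of low peaks, the median difference was 0.13. An exact two-sided permutation test over the 4 libraries gave p = 0.333, the smallest that 2 against 2 libraries allow. The KO mean was higher at 7434 peaks (78.7%). Both KO libraries exceeded both WT libraries at 3857 peaks (40.8%), and both fell below both WT libraries at 461 peaks (4.88%). After each library was centred on its median these counts were 1970 (20.8%) and 2027 (21.4%), and the median difference was -0.0036. With the whole constant of each library taken out, control and any depth scaling together, the median difference was -0.36. Higher peaks thus outnumbered lower ones on the deposited scale but not after centring. Centring gives each library the same median, so it takes out any shift common to all peaks. It cannot tell where such a shift came from.

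No single peak passed across the whole table. limma, fitted to all 9451 peaks with Benjamini-Hochberg adjustment, called 0 peaks (0%) at an adjusted p under 0.05. At an unadjusted p under 0.05 it had 1051 peaks (11.1%), of which 951 were higher in KO (10.1%) and 100 lower (1.06%). The KO mean was at least 1.5 times the WT mean at 833 peaks (8.81%), and the reverse held at 143 peaks (1.51%). A difference of 2-fold or more was reached by 118 peaks with a higher KO mean and 23 with a lower one. The median peak of those sets had 27 and 20.5 input reads, against 103.5 over all tested peaks.

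**Figure D2:**
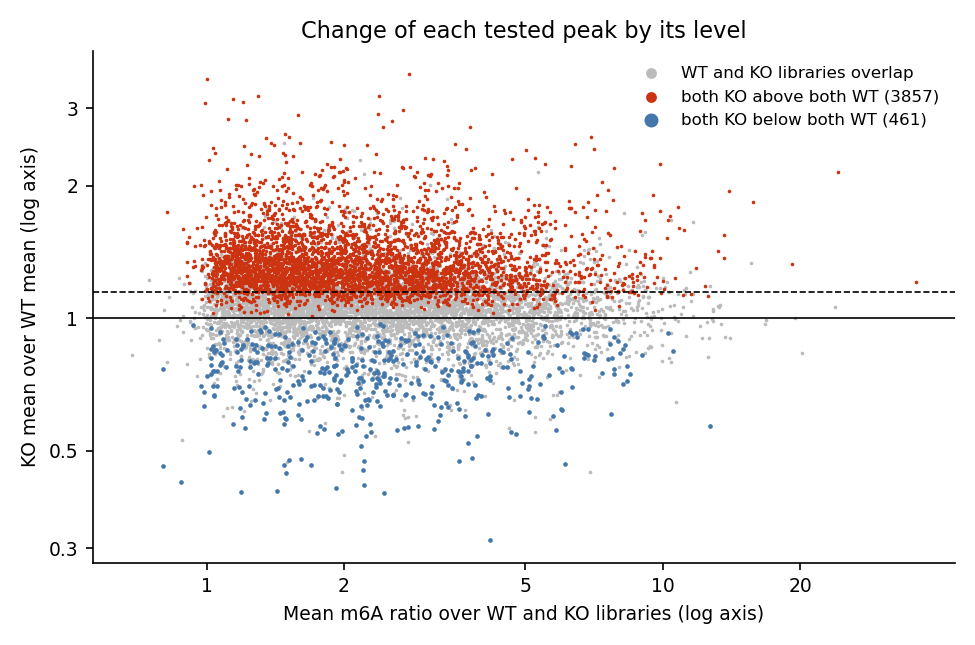
KO mean over WT mean (y axis, log scale) of each tested peak against its mean ratio over the WT and KO libraries (x axis, log scale). Red and blue points are the 3857 and 461 peaks whose KO libraries both lie above or both below the WT libraries, the solid line marks no difference, and the dashed line the median fold of 1.15.

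The fold was larger at weakly enriched peaks than at strongly enriched ones. Over quintiles of level, set by the mean of all 6 libraries, the median fold of the KO over the WT mean was 1.18 in the lowest, then 1.17, 1.15 and 1.14, and 1.11 in the highest. In the lowest quintile, with mean ratios of 1.00 to 1.36, the libraries had medians of 1.16 and 1.02 in WT and 1.21 and 1.38 in KO. In the highest, with mean ratios of 3.61 to 35.1, they had medians of 5.02 and 4.47 in WT and 4.85 and 5.54 in KO, so that here KO replicate 1 lay below WT replicate 1. Both KO libraries exceeded both WT libraries at 46.3% of the lowest quintile and 31.2% of the highest, but after centring at 19.4% and 18.1%, with 22.5% and 22.3% below.

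Each of the 4 pairs of a KO with a WT library had this order. From the lowest to the highest quintile the median fold went from 1.04 to 0.978 for KO replicate 1 over WT replicate 1, from 1.18 to 1.10 over WT replicate 2, from 1.19 to 1.12 for KO replicate 2 over WT replicate 1 and from 1.34 to 1.26 over WT replicate 2. Between replicates of 1 genotype it stayed between 1.12 and 1.14 in WT and between 1.14 and 1.15 in KO across the quintiles. Quintiles set from the del-cIDR libraries alone, which are not in the comparison, had median folds from 1.19 to 1.11.

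The size of that difference depended on the scale. On plain log2 of the ratio, the lowest minus the highest quintile was -2.11 and -2.13 in WT and -2.003 and -2.008 in KO, a KO minus WT difference of 0.11, with groups that did not overlap (exact permutation p = 0.333, the smallest possible; this scale was added after the data were seen). On log2(ratio + 1) the values were -1.48 and -1.44 in WT and -1.40 and -1.46 in KO, which overlapped, with a difference of 0.023 (exact permutation p = 0.667). That difference was -0.0047 without KO replicate 1 and -0.024 with no minimum on the ratio. The gradient is thus one of fold and was not resolved in the planned test.

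Narrow peaks were higher by a larger fold than wide peaks, and were also lower in level and in reads. The tested peaks spanned 200 to 9632 bases. The median fold was 1.20 at the 681 peaks of up to 250 bases, 1.16 at 3694 wider peaks of up to 500 bases, 1.14 at 3949 of up to 1000 bases and 1.13 at the 1127 wider ones. The narrowest class had median ratios of 1.36 and 1.20 in WT and 1.42 and 1.61 in KO, and the widest had 2.96 and 2.56 in WT and 2.88 and 3.31 in KO. In the widest class KO replicate 1 was therefore below WT replicate 1.

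On the deposited scale a larger share of wide than of narrow peaks had a higher KO mean. The KO mean was higher at 74.3% of the narrowest class and 81.5% of the widest, and both KO libraries lay below both WT libraries at 7.49% and 3.46%. After each library was centred the order of the latter shares turned, with 20.4% of the narrowest and 24.8% of the widest class below, and 24.1% and 18.5% above. The replicates of a genotype differed by a median of 0.26 in WT and 0.27 in KO (log2, after centring) in the narrowest class, and by 0.12 and 0.11 in the widest, where the median number of input reads was 221.5 against 45.5. Within the lowest quintile of level, the median fold was 1.21 at up to 250 bases and 1.19 at over 1000 bases. Within the highest it was 1.17 (25 peaks) and 1.09 (384 peaks).

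On log2(ratio + 1), narrow minus wide peaks was -0.75 and -0.70 in WT and -0.68 and -0.72 in KO, a difference of 0.020 with overlapping libraries (exact permutation p = 0.667). It was -0.0049 without WT replicate 1 and -0.0090 with no minimum on the ratio. With the narrowest and widest quintile in place of these classes it was 0.029, at -0.60 and -0.573 in WT and -0.55 and -0.571 in KO, which did not overlap (exact permutation p = 0.333, the smallest possible). Whether the libraries separated on this scale thus depended on the class limits. On plain log2 the values were -1.12 and -1.09 in WT and -1.02 and -1.03 in KO, a difference of 0.081 without overlap (exact permutation p = 0.333, the smallest possible). Within the middle quintiles of level (317 narrow and 676 wide peaks), the KO minus WT difference on log2(ratio + 1) was 0.013. The libraries there overlapped, at -0.345 and -0.296 in WT and -0.305 and -0.311 in KO.

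Peaks near another peak were slightly more often higher than isolated ones. The median fold was 1.17 at the 1763 peaks within 500 bases of the next and 1.14 at the 4405 peaks over 10000 bases from any other, and the KO mean was higher at 81.4% and 78.5%. On log2(ratio + 1), close minus isolated peaks was -0.083 and -0.092 in WT and -0.069 and -0.079 in KO. The difference, 0.013, was small, although no KO library overlapped a WT library (exact permutation p = 0.333, the smallest possible). The libraries overlapped, with differences of 0.0019 at 30 or more input reads and 0.0023 at a minimum ratio of 2 (exact permutation p = 1 for both). The centred differences of neighbouring peaks had a Pearson correlation of 0.12 over the 740 pairs within 500 bases, 0.16 over 648 pairs up to 2000 bases apart, 0.037 over 1056 pairs up to 10000 bases apart and -0.0017 over 6984 pairs further apart. The differences had the same sign at 51.6%, 54.3%, 52.8% and 50.8% of these pairs, so neighbours differed little from distant pairs in this respect. This correlation is across pairs of peaks that share the 4 libraries and, when close, may share a transcript.

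**Figure D3:**
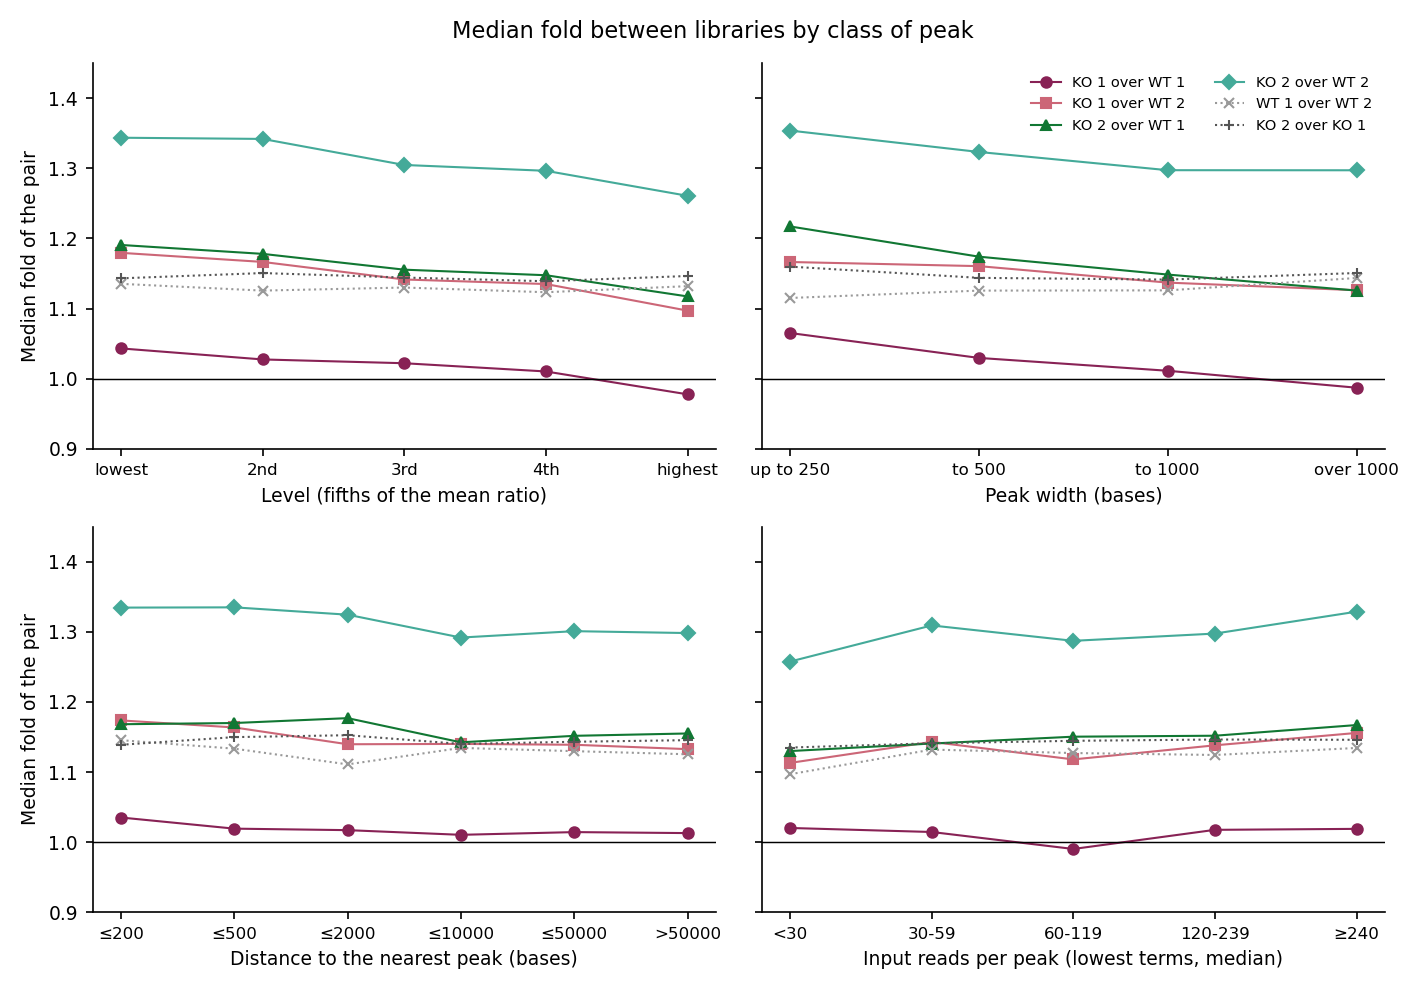
Median fold (y axis) between 2 libraries over the tested peaks of each class of level, width, distance to the nearest peak and input reads (x axes). Solid lines are the 4 pairs of a KO with a WT library and dotted lines the replicate pairs of WT and of KO. All 4 solid lines fall from the lowest to the highest level, where KO replicate 1 over WT replicate 1 ends at 0.978, and the dotted lines of that panel stay between 1.12 and 1.15.

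The share of higher peaks moved with the number of reads behind a peak, while the median fold moved little. At the 1687 peaks with a median of under 30 input reads, in lowest terms, the median fold was 1.13 and the KO mean was higher at 64.4%. At the 2531 peaks with 240 or more it was 1.16 and the KO mean was higher at 90.9%. Both KO libraries exceeded both WT libraries at 29.8% of the first class and 52.5% of the second, and lay below both at 11.5% and 0.830%. After each library was centred, the second class had both KO libraries above both WT libraries at 26.3% and below at 21.9%.

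By chromosome the change was even over the autosomes. The median fold lay between 1.12 on chromosome 19 and 1.19 on chromosome 14, and was 1.17 at the 222 peaks of the X chromosome. Since the KO mean was higher at 78.7% of all tested peaks, medians over several peaks would mostly lie above 0 by that share alone. Windows were not counted after centring, so their share above 0 says nothing on position. Of 610 windows of 1 Mb with at least 6 tested peaks, 596 (97.7%) had a median difference above 0, with median folds from 0.910 to 1.5. The window at the top of that range held 8 peaks at chr2:176414882-177000382, with median ratios of 2.03 and 1.63 in WT and 2.31 and 2.90 in KO. All 8 KO means there were higher. The window at the bottom, at chr12:105081261-105803443, held 7 peaks, 3 of them with a higher KO mean, and had medians of 4.41 and 2.39 in WT and 2.22 and 2.85 in KO. Both windows were picked for their values, and the libraries of the second overlapped.

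The Y chromosome stood above the others, on few peaks. It held 10 peaks, of which 8 were tested, and all 8 had a higher KO mean. The WT libraries had median ratios of 2.34 and 2.32 over the 8, the KO libraries 3.86 and 3.69, and the del-cIDR libraries 2.52 and 2.46. Both KO libraries exceeded both WT libraries at 7 of the 8 (87.5%, against 40.8% of all tested peaks), and the median fold was 1.41. After each library was centred this held at 3 of the 8 (37.5%, against 20.8%), and at none were both KO libraries below. In each pair of libraries the median fold on Y, from 1.21 for KO replicate 1 over WT replicate 1 to 1.58 for KO replicate 2 over WT replicate 2, was above that of every other chromosome.

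The folds of the 8 tested Y peaks ran from 1.04 to 1.87. The lowest, at 10641995 to 10642344, had as few as 7 input reads in a library, and the highest, at 10642745 to 10643122, as few as 3. Of the 10 Y peaks only 2 had at least 30 input reads in each WT and KO library. Their folds, 1.33 and 1.26, were under the Y median of 1.41. The peak at chr Y, 90822369 to 90824153, with at least 482 input reads in each WT and KO library, had ratios of 7.85 and 7.86 in WT and 9.02 and 10.8 in KO, a fold of 1.26. The peak at 74585455 to 74585795, with 7 to 29 input reads, had 2.40 and 2.69 in WT and 3.64 and 5.60 in KO, a fold of 1.82. No Y peak passed limma (adjusted p of 0.389 or more). Y was singled out after its values were seen, and the 2 untested peaks had folds of 0.772 and 1.92 at ratios under 1.

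**Figure D4:**
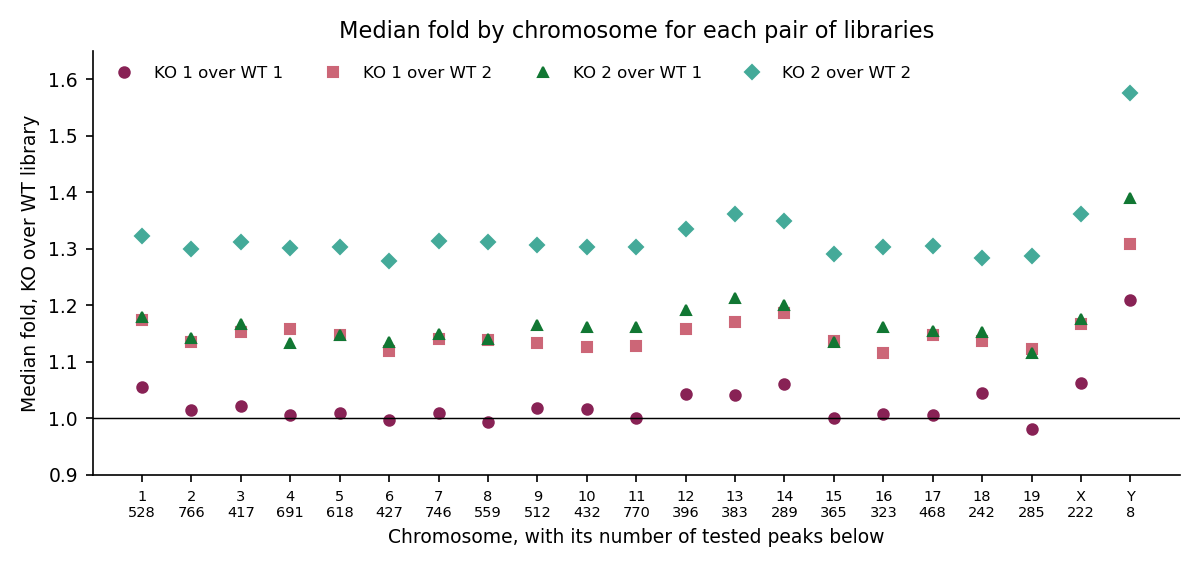
Median fold of each KO over each WT library (y axis) over the tested peaks of each chromosome (x axis, with the number of tested peaks). Each symbol is 1 pair of libraries, and the 8 peaks of Y lie above every other chromosome in all 4 pairs, from 1.21 to 1.58.

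Single peaks were named by the smallest p among those whose WT and KO libraries did not overlap, 12 in each direction, since none passed. The 12 higher peaks spanned 207 to 576 bases and had folds of 2.11 to 3.49 (limma adjusted p of 0.330 in all). First came chr2:26909910-26910135, with ratios of 0.511 and 0.459 in WT and 1.41 and 1.57 in KO, a difference on log2(ratio + 1) of 0.75 (SE 0.11). Its lowest input count was 3 in lowest terms. At chr5:48142347-48142553, the peak with the highest fold of the 12, the ratios were 0.489 and 0.404 in WT and 1.62 and 1.49 in KO. The WT means of these 2 peaks, 0.485 and 0.446, were under the minimum mean ratio of 1. They reached it through KO (means 1.49 and 1.56) and del-cIDR (1.04 and 1.28). Their place below 1 in WT and above it in KO thus in part restates that minimum. Also among the 12, chr11:100337987-100338562 reached it through KO alone, with means of 0.588 in WT, 0.633 in del-cIDR and 1.82 in KO. The limit holds too at chr3:122522602-122523013, with means of 0.617 in WT, 1.16 in del-cIDR and 1.97 in KO. In the same order, the means were 0.639, 1.19 and 1.80 at chr3:30752463-30752702 and 0.781, 1.17 and 1.83 at chr4:127235344-127235568. Without the rise in KO these peaks would not have been tested.

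Higher peaks were not only weak ones. At chr19:56535906-56536252 the ratios were 2.39 and 1.93 in WT and 4.57 and 4.57 in KO, a fold of 2.11. At chr13:62666280-62666547 they were 1.11 and 1.17 in WT and 4.41 and 2.88 in KO, where the KO libraries lay further apart than the WT libraries but both above them. Of the 12, 11 had under 30 input reads in some library. The exception, chr3:86813205-86813595, with at least 80, had 1.64 and 1.41 in WT and 2.99 and 3.54 in KO, a fold of 2.14.

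The 12 lower peaks had folds of 0.314 to 0.574 and widths of 270 to 1459 bases (limma adjusted p of 0.330 to 0.372). At chr12:84281977-84282327 the ratios were 4.77 and 7.99 in WT and 1.80 and 2.20 in KO, the lowest fold of the 12 and also the deepest fall within the highest quintile of level. It rested on as few as 3 input reads in a library. At chr17:15243433-15244891, with at least 49 input reads in each library, they were 5.08 and 4.73 in WT and 2.34 and 2.78 in KO, a fold of 0.522. At chr13:62009420-62009712 they were 5.14 and 5.18 in WT and 2.66 and 2.31 in KO, a fold of 0.482 on at least 30 input reads. The WT libraries of these latter peaks were nearly equal, and the KO libraries lay near the KO medians over all tested peaks, 2.15 and 2.45.

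**Figure D5:**
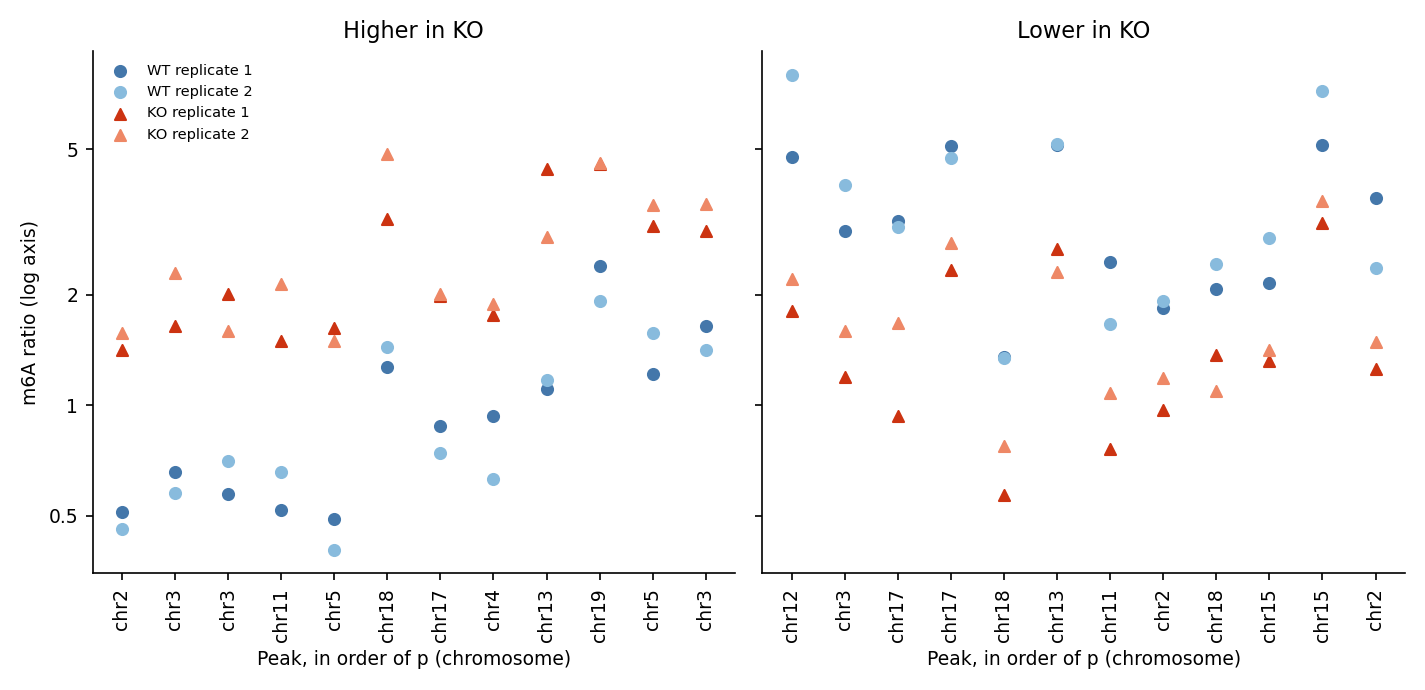
m6A ratio (y axis, log scale) in each WT library (circles) and KO library (triangles) of the 12 higher (left) and 12 lower (right) peaks with the smallest p, in order of p, labelled by chromosome. The 2 genotypes do not overlap at any of the 24 peaks, which was part of how they were chosen, and none passed the adjusted test.

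The 5 most enriched peaks differed little between genotypes, with 1 exception, but 4 of them had under 30 input reads in some library, down to 1. The highest, chr7:96960990-96961961, had ratios of 34.8 and 30.1 in WT and 41.2 and 37.3 in KO, a fold of 1.21 (limma adjusted p = 0.761). At chr11:55064431-55064918 the ratios were 16.4 and 14.4 in WT and 30.1 and 36.1 in KO, a fold of 2.15, although limma's adjusted p was 0.389. It had as few as 21 input reads in a library. The other 3 of the top 5, chr3:54806302-54806803, chrX:133650419-133650945 and chr7:96555213-96555960, had folds of 1.06, 0.835 and 1.00 with overlapping libraries. The highest rise on the plain log2 scale within the top quintile, at chr2:175035187-175035445, went from 6.12 and 1.67 in WT to 7.12 and 12.96 in KO, so that its WT libraries were further apart than WT replicate 1 was from KO replicate 1. It rested on as few as 9 input reads in a library.

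The 5 widest tested peaks, of 5128 to 9632 bases, had folds of 0.806 to 1.16. The widest, chr3:6363063-6372694, had ratios of 6.68 and 6.01 in WT and 5.80 and 8.67 in KO, which overlapped. The peak at chr2:80642186-80647313 had 8.79 and 8.05 in WT and 6.74 and 6.82 in KO, lower in both KO libraries, with a limma adjusted p of 0.621. None of the 5 passed, and 4 of them had under 30 input reads in some library, down to 1.

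When peaks were limited to those with at least 30 input reads, in lowest terms, in each WT and KO library, 47 of 4759 (0.988%) passed limma's test at an adjusted p under 0.05. Of these, 42 were higher in KO (0.883%), by folds of 1.67 to 2.58, and 5 were lower (0.105%), by folds of 0.482 to 0.596. In this fit the common spread of the peaks was estimated with 49.8 prior degrees of freedom, against 5.88 in the fit of 9451 peaks. The count rested on KO replicate 2, without which 0 peaks passed. After centring of each library 1 peak passed, the lower peak at chr17:15243433-15244891 described above. With the whole constants taken out, any depth scaling included, 1059 passed, all lower. None of the 42 higher calls was thus kept by either of these scalings. All 42 kept their direction. For centring this followed from their choice by large differences, since it takes the same amount from each peak. Their differences on log2(ratio + 1) were 0.42 to 1.10 as deposited, 0.28 to 0.96 centred and 0.036 to 0.54 with the constants taken out.

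Among the 42 higher peaks, 33 (78.6%) were up to 500 bases wide, against 38.3% of the 4759. Over all 9451 tested peaks, replicates differed more at narrow than at wide peaks. The median was 0.26 in WT and 0.27 in KO at up to 250 bases, and 0.12 and 0.11 at over 1000 bases (log2, after centring). The fit let the spread vary with level, not with width. Whether this raised the share of narrow peaks among the calls was not tested. The peak with the largest fold, chr12:82387335-82387596, had ratios of 0.742 and 0.947 in WT and 1.73 and 2.63 in KO (limma adjusted p = 0.00087 among the 4759). At chr5:146688869-146689265 the ratios were 4.12 and 4.14 in WT and 10.7 and 9.36 in KO, and at chr14:8365626-8365924 they were 2.84 and 1.96 in WT and 4.57 and 5.85 in KO, with limma adjusted p of 0.00091 and 0.00094 among the 4759. At chr4:40976677-40977039, the peak of the 42 with the most reads, with at least 965 input reads in each library, they were 0.835 and 0.680 in WT and 1.22 and 1.46 in KO, a fold of 1.78 (limma adjusted p = 0.036 among the 4759). Its means were 0.757 in WT and 1.01 in del-cIDR, so it met the minimum mean ratio of 1 only because KO was high. Others of the 42 share this limit. In the order WT, del-cIDR and KO, the means were 0.696, 1.02 and 1.35 at chr9:96962267-96962678 and 0.771, 1.05 and 1.42 at chr2:11772026-11772588. They were 0.851, 0.973 and 1.49 at chr1:52529167-52529451. Of the 42, 14 lay in the lowest quintile of level, so the count of 42 in part restates the minimum.

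The 5 lower peaks included chr17:15243433-15244891 and chr13:62009420-62009712, with limma adjusted p of 0.0028 and 0.0012 among the 4759. At chr16:44565841-44566731 the ratios were 2.88 and 2.52 in WT and 1.46 and 1.76 in KO, a fold of 0.596 (limma adjusted p = 0.046 among the 4759). The other 2 lay on chromosome 18 and had folds of 0.497 and 0.549. In the fit of all 9451 peaks none of the 47 passed, with adjusted p of 0.330 to 0.427 in limma.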

How the data were processed

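The deposited table holds a ratio per peak and library, IP over input times 1 constant per library. The form was read from the values: a quotient of whole numbers, with a denominator of at most 3000 and times that constant, met between 98.6% and 99.6% of a library's values within a relative tolerance of 1e-10, against at most 0.23% by chance. Per the submitters' processing notes, the authors used MACS2, bedtools, featureCounts, HISAT2, fastp, Picard and SAMtools (no versions or roles stated) with the build GRCm39. The sources used here do not say whether peaks were called per sample or on pooled samples.

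For peaks whose mean ratio reached 1, log2(ratio + 1) of the 3 genotypes was fitted together in limma 3.58.1 under R 4.3.3, with an eBayes variance trend and no block. Adjustment was by Benjamini-Hochberg over the peaks fitted, with a threshold of 0.05. A fit without 1 library assumes that the lone library varies like the other groups. Class values were set between libraries by exact two-sided permutation of 2 against 2. The fit of 9451 peaks was tested on simulated data whose spread depended on level only, not on reads or width. The fit at 30 input reads was not simulated. Figures and tables used Python 3.11.15, numpy 2.4.6, pandas 2.3.3 and matplotlib 3.10.9.

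Named peaks were, where none passed, up to 12 in each direction with the smallest p and no overlap of WT and KO libraries, the 5 with the highest mean, the 5 widest, and the largest change each way in the highest quintile of level. The members, classes and rules were chosen with earlier results of these data known. Replicate numbers did not pair the libraries: deviations between replicates 1 and 2 correlated at -0.015 between WT and KO over peaks. Reads in lowest terms are lower bounds and carry counting error only. Alternatives covered pseudocounts, minimum ratios, scalings, reads, the groups in the fit, the variance trend, a block and left-out libraries. The part of the rule that names peaks by gene, position in genes, cell markers and the mRNA table were not analysed here, since no annotation of the build was used.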

Additional observations from a re-analysis of the deposited data

How the results depend on the processing

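The median KO minus WT difference, 0.13 on log2(ratio + 1), was -0.36 with the whole constants taken out, any depth scaling included. With each library centred, which takes out any shift common to all peaks, it was -0.0036 (-0.0027 centred on plain log2). It ran from 0.067 to 0.20 when 1 library was left out. The counts of peaks with both KO libraries above, and both below, both WT libraries were 3857 and 461 as deposited, 100 and 7029 with the constants taken out, 1970 and 2027 centred, 2058 and 2038 centred on plain log2, 2091 and 1927 after quantile normalization, 1875 and 271 at a minimum ratio of 2, and 2207 and 132 at 30 input reads. Peaks at an unadjusted p under 0.05 numbered 1051 as deposited, 2918 with the constants taken out, 484 at a minimum ratio of 2, 1624 with no minimum, and 540 to 1262 when 1 library was left out.

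Peaks passing the adjusted test, 0 in the fit of 9451, numbered 44 with the constants taken out, all lower, 9 with only WT and KO in the fit, and 0 to 10 with 1 library left out (9 and 10 without del-cIDR replicate 1 and 2, 0 without a WT or KO library). They numbered 47 at 30 input reads. Settings at higher or lower reads, chosen after seeing the data, gave 21 at 20 reads, 75 at 60 reads and 52 at a median of 60 reads. Among peaks of at least 30 reads, and also added later, the count was 1059 with the constants taken out, 1 centred, 15 with no variance trend, 55 with only WT and KO, and 0 to 33 with 1 library left out (0 without KO replicate 2, 33 when KO replicate 1 was dropped instead, 23 and 26 when WT replicate 1 or 2 was). With the replicate number as a block, 59 of 9451 and 37 of 4759 peaks passed; 35 of the latter were among the 47. Since the numbers do not pair the libraries, this says nothing on the strength of an effect.

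Low minus high level, 0.023, was -0.024 with no minimum ratio, 0.20 with the constants taken out, 0.0052 after quantile normalization, 0.0082 at 30 input reads and from -0.0047 to 0.051 with 1 library left out. Narrow minus wide, 0.020, was -0.0090 with no minimum, 0.13 with the constants taken out and from -0.0049 to 0.045 with 1 library left out. Close minus isolated, 0.013, was above 0 in every alternative run, but at 30 input reads (0.0019) and at a minimum ratio of 2 (0.0023) the libraries overlapped. All 24 named peaks kept their direction in each setting where they were tested, which was 13 of them at a minimum ratio of 2 and 5 at 30 input reads. They were chosen without overlap of WT and KO libraries. Other pseudocounts, minimum ratios and left-out libraries therefore could not turn their direction. The causes were not tested. With 2 libraries a genotype, no class contrast can reach an exact p under 0.333, and peaks of few input reads limit single calls.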
